A study of Mus musculus with 8 samples.

Results

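Basal cells of the interfollicular epidermis (IFE), the skin surface between hair follicles, were picked from 6 plates of single cells of mouse epidermis by the transcripts of each well. A well was taken as basal when Krt5 and Krt14 together made up at least 1% of its transcripts and the genes that mark its neighbours stayed low. These limits were under 0.3% for Krt1 plus Krt10, under 0.3% for Cst6, Defb6 and Krt79, under 0.1% for Postn plus Cd34, fewer than 2 transcripts of Dct, Aldh3a1 and Sostdc1, fewer than 4 of Cd3d, Cd3e, Cd3g and Cd7, and fewer than 10 of Cd74, H2-Ab1 and H2-Aa. Wells also needed at least 1000 transcripts and less than 10% Kcnq1ot1. Of 2304 wells, 1109 passed the minimum of transcripts, 886 of them carried an epidermal sign, and 232 met the basal rule. The other 654 epidermal wells were the comparison within each plate.

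All mice were adult C57BL/6 mice of the Troy-EGFP-IRES-CreERT2 line, in which a cassette for a green fluorescent protein (EGFP) and a tamoxifen-inducible Cre recombinase replaces the protein-coding region of Troy (Tnfrsf19), so that Troy's own promoter drives both. Back skin was in telogen, the resting phase of the hair cycle. The wells of 4 plates came from Troy-EGFP mice, sorted by EGFP and by integrin alpha 6 (ITGA6) on the cell surface. Another 2 plates came from traced mice, which were male, carried Troy-EGFP-IRES-CreERT2 and Rosa26-LSL-tdTomato, both homozygous, and received a single tamoxifen injection 7 days before sorting, so that cells with active Cre and their progeny turned red (tdTomato). The gate from which each well was filled was not used here. In addition, 2 Troy-EGFP mice each gave 3 bulk libraries, of viable, ITGA6bright EGFP+ and ITGA6bright EGFP- cells.

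The basal layer of the IFE sits on the basement membrane, which it grips through hemidesmosomes and integrins, and it holds the dividing cells of the tissue. Its cells make the keratins KRT5 and KRT14. When a cell leaves the layer, it switches to KRT1 and KRT10, and later to the proteins of the cornified envelope. Neighbouring follicle cells share KRT5 and KRT14 with it, so surface and secreted proteins such as SCA1, encoded by Ly6a, are also used. The paper takes SCA1 as a sign of the IFE and of the infundibulum, a part of the upper follicle, together. The rule used here holds no gene chosen to separate basal cells of the infundibulum from those of the IFE. The basal wells can therefore include both.

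The genes Il1r2, Serpinb2 and Serpinb7 led the basal wells in every plate used and also separated EGFP+ from EGFP- cells in bulk, which is why the 300 bases around their start sites are shown. Il1r2 encodes the decoy receptor of interleukin 1. Serpinb2 and Serpinb7 encode serine protease inhibitors of the same clade and lie close together on chromosome 1. The sequences run from 250 bases before to 50 bases after the start, are RefSeq promoters of build GRCm38.p6, and lie on the plus strand at chr1:40085843-40086142, chr1:107511173-107511472 and chr1:107422439-107422738. Capitals mark matches on either strand to 3 motifs. The AP-1 motif was searched as TGANTCA. The TATA box, where the basal transcription machinery binds, was searched as TATAAA. The E-box, a site of basic helix-loop-helix factors, was searched as the palindrome CACGTG.
Il1r2: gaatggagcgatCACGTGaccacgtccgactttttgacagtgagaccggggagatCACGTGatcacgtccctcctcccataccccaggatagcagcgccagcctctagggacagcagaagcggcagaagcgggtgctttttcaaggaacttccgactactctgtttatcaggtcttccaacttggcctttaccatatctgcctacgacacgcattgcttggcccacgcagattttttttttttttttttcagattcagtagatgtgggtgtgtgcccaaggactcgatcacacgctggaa
Serpinb2: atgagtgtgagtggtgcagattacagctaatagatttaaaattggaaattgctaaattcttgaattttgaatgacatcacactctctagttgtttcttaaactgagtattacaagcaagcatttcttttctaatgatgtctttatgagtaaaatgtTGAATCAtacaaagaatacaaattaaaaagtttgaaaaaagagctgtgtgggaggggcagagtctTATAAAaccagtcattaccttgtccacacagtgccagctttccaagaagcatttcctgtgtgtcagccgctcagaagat
Serpinb7: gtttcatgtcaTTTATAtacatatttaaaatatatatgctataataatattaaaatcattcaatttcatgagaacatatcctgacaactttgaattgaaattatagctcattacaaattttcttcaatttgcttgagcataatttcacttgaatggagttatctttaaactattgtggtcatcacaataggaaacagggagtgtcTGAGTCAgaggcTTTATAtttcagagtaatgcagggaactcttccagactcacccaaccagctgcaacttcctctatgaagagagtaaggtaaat
A promoter was found for 13 of the 19 genes looked up. The AP-1 letters were in the promoters of 2 of the 13, those of Serpinb2 and Serpinb7, and in 7.81% of all 32851 promoters of this length. The E-box was in 2, Il1r2 and Bmp4 (7.15% of all promoters), and the TATA box in 4 (13.6%). The Il1r2 promoter held the E-box at 2 places. These matches describe letters, and no binding was measured.

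The 5 plates with at least 10 basal wells gave between 32 and 62 of them, and Troy-EGFP 1 gave 5. Basal wells held a median of 2361 to 4022 transcripts per plate, against 2446 to 3579 in the other epidermal wells, so depth was similar. The plates shared the same 384 well numbers, and no well past the minimum repeated the values of another. Xist, transcribed from the inactive X chromosome, was found in basal wells of Troy-EGFP 3 and 4 only, and Y-linked genes in those of the other 4 plates. Mitochondrial rows, which were dropped, were present in Troy-EGFP 3 and 4 only, at 4.75% and 5.75% of transcripts.

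Basal wells made up similar shares of the epidermal wells in every plate. The share was 20.8% (5 of 24 wells, exact Clopper-Pearson 95% interval 7.13 to 42.2%), 29.6%, 27.0% and 22.3% in the 4 Troy-EGFP plates, and 28.8% and 25.1% in the traced plates. The groups overlapped. Traced mice averaged 27.0% ± 2.62 (SD, n = 2) and Troy-EGFP mice 24.9% ± 4.09 (SD, n = 4), a difference of 2.05 percentage points (exact permutation test, two-sided, p = 0.667), where 2 against 4 plates cannot give less than 0.133. The sort set which cells entered a plate, so these are shares of sorted wells. Intervals and limits of shares cover counting error only.

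**Figure D1:**
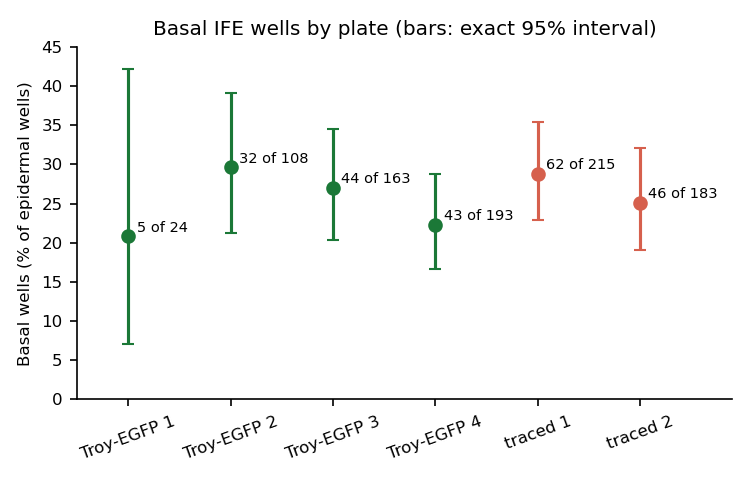
Share of epidermal wells that met the basal rule (y axis, percent) in each plate (x axis), Troy-EGFP plates in green and traced plates in red, with exact 95% intervals and the numbers of wells. All 6 plates lie between 20.8% and 29.6%, and the 5 basal wells of Troy-EGFP 1 give the widest interval.

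The values that chose the wells are given as a description. The combined share of Krt5 and Krt14 had a median of 1.79% in the basal wells of Troy-EGFP 1, and between 2.03% and 3.05% in those of the other plates, against 0.979% to 1.44% in the other epidermal wells. The basal well nearest to the keratin limit held 1.01% and the nearest well outside it 0.962%, and 22 basal wells lay within 1.5 times of the limit. For Krt1 plus Krt10 the nearest values were 0.240% inside and 0.344% outside, for Cst6, Defb6 and Krt79 0.177% and 0.302%, and for Postn plus Cd34 0.0912% and 0.132%.

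The 3 markers that the rule did not use, Il1r2, Antxr1 and Ly6a, were higher in the basal wells of each of 5 plates. Levels here are CPM, the transcripts of a gene scaled to a common total of those summed over the wells of a class in a plate, and differences are of log2(CPM + 20), which understates the change of low genes. Since the same wells were chosen by their transcripts, no test was run on basal against other wells. A gene was considered when the basal wells held at least 20 of its transcripts, a filter on one of the compared classes that removes genes low in basal wells, so the counts of higher and lower genes and the medians of the lists are not balanced. Among 5697 genes considered, 504 (8.85%) were higher and 415 (7.28%) lower in the basal wells of every plate. Only 15 genes (0.263%) were higher, and 17 (0.298%) lower, by at least 1 on the log2 scale in every plate. The 15, called leading genes here, were Antxr1, Ascl2, Bmp4, Cbr2, Ccnd1, Fth1, Htra1, Igfbp3, Il1r2, Man1c1, Ngfr, Serpinb2, Serpinb7, Smoc2 and Wee1.

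Genes of other cell types that the rule did not use were also measured. Summed over 6 T cell genes outside the rule, the level ran from 55.7 to 273 CPM over the plates in basal wells, from 15.5 to 118 CPM in other epidermal wells and from 8190 to 16941 CPM in wells with T cell signs. Thy1 alone of that list could be considered, and it was 1.15 higher in basal than in other epidermal wells. Of the rule's T cell genes Cd3d was at 0, as was Lck outside the rule. Summed over 8 Langerhans cell genes outside the rule, the level was 61.8 to 278 CPM in basal, 18.0 to 326 CPM in other epidermal wells and 2185 to 32274 CPM in wells with Cd74 signs. Mfge8, of that list, was lower in every plate, by -0.55. The wells of comparison were themselves picked by T cell genes or Cd74 and its partners, so these ranges are a description. Of the melanocyte genes Pmel, Tyrp1, Mlana and Tyr were at 0, of the fibroblast genes Dcn, and of the endothelial genes the 4 in the files. Kcnq1ot1, which the rule limits, and Mir1950, both used as signs of damaged cells, summed to 983 to 32641 CPM in basal wells and to 872 to 30763 CPM in other epidermal wells.

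Troy itself was seen in few basal wells. In the Troy-EGFP plates 0 of 5, 7 of 32, 8 of 44 and 10 of 43 basal wells held a transcript of Tnfrsf19. In the traced plates 1 of 62 and 0 of 46 did. The level was 0, 90.9, 77.3 and 82.8 CPM in the Troy-EGFP plates and 4.50 and 0 CPM in the traced plates. Finding 0 of 46 wells allows up to 6.52% of wells with a transcript (3 wells), which says nothing of the share of cells that express so low a gene. The plates with 10 or more basal wells did not overlap between the groups, but the fitted difference, -4.71 ± 1.03 on the log2 scale (SE), missed the threshold (edgeR quasi-likelihood test, Benjamini-Hochberg adjusted p = 0.0875). It passed without a filter on low counts (-4.64, edgeR adjusted p = 0.00116) and without Troy-EGFP 2 (-4.72, edgeR adjusted p = 0.000527). In the other epidermal wells the level was 35.0 to 63.9 CPM in the 4 Troy-EGFP plates and 6.89 and 12.1 CPM in the traced plates. The traced mice were homozygous for an allele without Troy's coding region, and the other differences between these mice cannot be told apart from it here. In bulk, where all libraries came from Troy-EGFP mice, Tnfrsf19 had 120 and 80.4 CPM in EGFP+, 22.5 and 37.1 CPM in EGFP- and 91.2 and 93.3 CPM in viable cells. The EGFP+ and EGFP- cells were sorted by the reporter in this gene, so comparing them restates the sort and is no independent test. EGFP+ cells exceeded EGFP- cells in both mice, by 1.66 ± 0.483 (log2, SE, edgeR adjusted p = 0.0423), but missed the threshold without EGFP+ of mouse 1 (1.29, edgeR adjusted p = 0.378) or EGFP- of mouse 1 (1.43, edgeR adjusted p = 0.109). It also missed it with DESeq2 (adjusted p = 0.343) and when only the EGFP+ and EGFP- libraries were fitted (edgeR adjusted p = 0.0814).

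The genes with the largest mean differences are given with their levels. Il1r2 had 239, 619 and 544 CPM in the basal wells of Troy-EGFP 2, 3 and 4 and 950 and 897 CPM in those of traced 1 and 2. The other epidermal wells of the same plates had 13.1, 46.1, 31.9, 159 and 128 CPM. Every basal value lay above every other value, and the mean difference was 2.95 ± 0.42 (log2, SD, n = 5 plates). Antxr1, a receptor for collagen VI and anthrax toxin, was nearly level over the plates, with 273, 283, 225, 225 and 260 CPM in basal wells and 69.9, 35.6, 42.6, 36.2 and 62.2 CPM in other wells. Its difference was 2.00 ± 0.30, again with no overlap. Serpinb2 had 830, 296, 473, 387 and 421 CPM against 184, 71.2, 123, 72.4 and 79.5 CPM, a difference of 1.99 ± 0.18, the smallest SD among the 15 genes with the largest mean differences.

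Ly6a, the gene of SCA1, varied more between mice. Its basal level was 387, 96.6 and 148 CPM in Troy-EGFP 2, 3 and 4 and 703 and 458 CPM in traced 1 and 2, against 162, 69.2, 28.9, 167 and 109 CPM in other wells. The basal wells were higher in each plate, by 1.43 ± 0.66, but the 2 classes overlapped over the plates. Smoc2, a secreted calcium-binding matrix protein, had 455, 651, 769, 360 and 346 CPM against 140, 88.0, 116, 81.0 and 161 CPM, and did not overlap. Igfbp3, a carrier of insulin-like growth factors, differed by 1.52 ± 0.33, Bmp4, a bone morphogenetic protein ligand, by 1.35 ± 0.21, and Ngfr, a nerve growth factor receptor, by 1.53 ± 0.29.

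Ccnd1, the G1 cyclin D1, had 225 to 455 CPM in basal wells and 50.3 to 162 CPM in others (1.54 ± 0.25). Ascl2, a basic helix-loop-helix transcription factor, had 108 to 171 CPM against 21.3 to 41.9 CPM (1.59 ± 0.46), and neither gene overlapped. Il33, an alarmin cytokine kept in the nucleus, differed by 1.54 ± 0.66, Cbr2, a carbonyl reductase, by 1.64 ± 0.55, and Serpinb7 by 1.71 ± 0.79. The remaining genes of the 15 largest mean differences were Slc4a8, a bicarbonate transporter (1.66 ± 0.76), Man1c1, a Golgi mannosidase (1.58 ± 0.40), Cdh4, a cadherin (1.57 ± 0.40), and Itga6 (1.49 ± 0.54).

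Krtdap, a secreted protein of the first suprabasal layers, had the lowest mean difference. It had 136, 64.4, 59.2, 135 and 30.9 CPM in basal wells and 1642, 2579, 1908, 1958 and 1654 CPM in other wells. The groups were far apart, by -4.33 ± 0.75. Alox12e, an epidermal lipoxygenase, differed by -3.54 ± 0.88 and the lipid carrier Fabp5 by -2.21 ± 0.47. Ly6g6c differed by -3.38 ± 1.63 and overlapped, since the basal wells of traced 2 held 490 CPM against 0 to 40.5 CPM in the other 4 plates. Krt17, a keratin of follicle and stressed epidermis, differed by -2.22 ± 1.30, Ctgf, a matrix regulator, by -2.54 ± 0.90, and Igfbp4 by -2.06 ± 0.79.

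**Figure D2:**
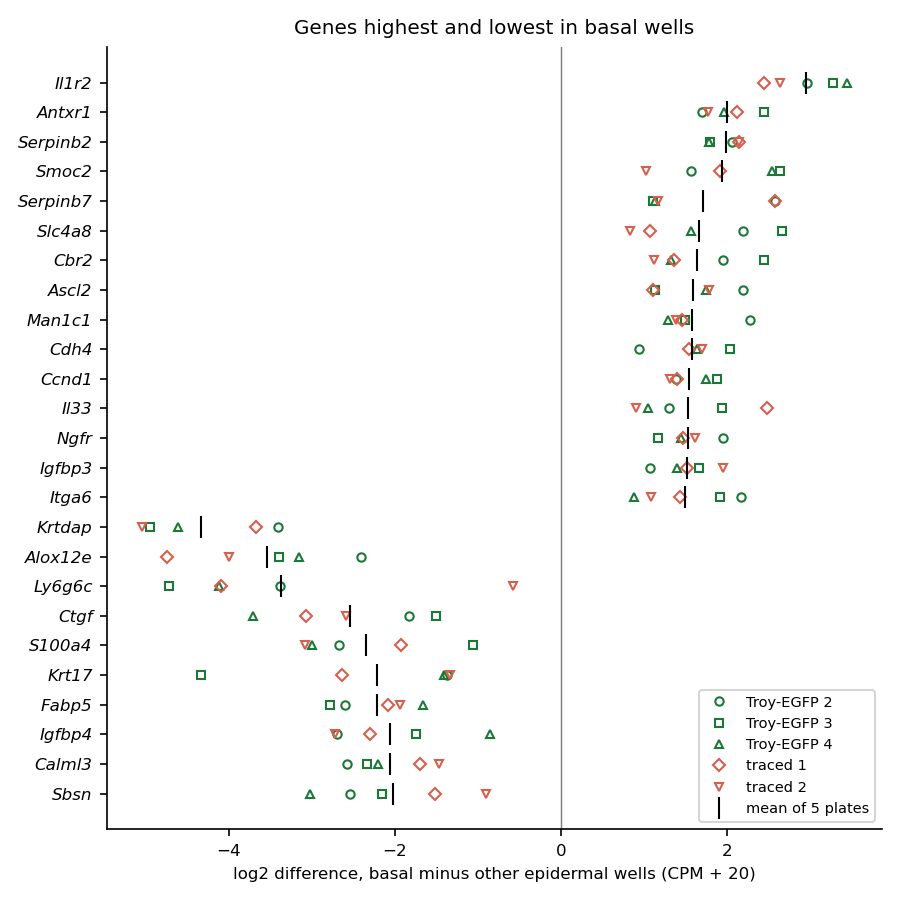
Difference in log2(CPM + 20) between basal and other epidermal wells (x axis) for the 15 genes with the largest and the 10 with the smallest mean (y axis). Each symbol is 1 of 5 plates, green for Troy-EGFP and red for traced, and the bar is their mean. Il1r2 leads with a mean of 2.95 and Krtdap is lowest with -4.33.

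The comparison class mixed several cell states, so the basal wells were also set against 3 of them. Wells that only exceeded the Krt1 plus Krt10 limit (109 wells of 5 plates) came first. Ftl1, a ferritin light chain, was 3.61 ± 1.05 higher in basal wells, Smoc2 3.58 ± 1.11, S100a6, a calcium-binding protein, 3.42 ± 0.47, and Cbr2 3.39 ± 0.49. Krt6a had the third largest mean, 3.45 ± 2.53, but only 25 of the 232 basal wells held its transcripts, and the difference ran from 0.374 to 6.75 over the plates. Il1r2 and Antxr1 differed from these wells by 3.32 ± 0.84 and 3.31 ± 0.51. Some other genes with large mean differences above changed sign between plates against these wells. Ascl2 differed by 1.04 ± 1.03 (lowest plate -0.204) and Igfbp3 by 0.76 ± 0.73 (lowest plate -0.411). The lowest plate was -0.0543 for Man1c1, -0.496 for Slc4a8 and -0.0577 for Il33. Serpinb2, Serpinb7, Cdh4, Ccnd1, Ngfr and Itga6 stayed higher in the basal wells of every plate. In the other direction Krtdap differed by -5.80 ± 0.59 and Calm4 by -2.91 ± 0.38.

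Wells that only exceeded the Postn plus Cd34 limit (142 wells, 5 plates), genes of the lower follicle, were the second class. Basal wells were higher in Il1r2 by 4.12 ± 0.52, in Clca2, a chloride channel accessory protein, by 3.72 ± 0.94, in Serpinb2 by 3.63 ± 0.53, in Ly6a by 3.62 ± 0.88 and in the adhesion protein gene Chl1 by 3.36 ± 1.27. They were lower in Lhx2, a transcription factor of follicle stem cells, by -3.86 ± 0.62 and in S100a4 by -4.43 ± 0.99. Krt15, a keratin of basal and follicle stem cells, differed by -0.37 ± 0.13. Tnfrsf19 averaged 51.1 CPM in basal wells of the 5 plates, 3.27 CPM in these wells and 31.7 CPM in the Krt1 and Krt10 wells. In wells with only Sostdc1, Aldh3a1 or Dct signs it had 122, 42.6 and 98.6 CPM in Troy-EGFP 2, 3 and 4, against 90.9, 77.3 and 82.8 CPM in basal wells.

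Wells that only exceeded the Cst6, Defb6 and Krt79 limit (45 wells, 3 plates), genes of the upper follicle, were the third class. Il1r2 was 4.68 ± 1.00 higher in basal wells, Igfbp3 4.54 ± 1.05, the taurine transporter gene Slc6a6 4.34 ± 0.27, the metallothionein gene Mt2 4.29 ± 0.70 and Ly6a 4.27 ± 1.09, with Ly6a at 0 CPM in the upper follicle wells. Alox12e was lower by -5.98 ± 0.67 and Krt17 by -4.47 ± 0.44. Tnfrsf19 averaged 29.1 CPM in basal wells of these 3 plates and 35.5 CPM in the upper follicle wells, a difference of -0.003 ± 0.30. Several genes that were low against the mixed class changed direction with the class: Krt17, S100a4, Calml3, Ctgf and Igfbp4 were higher in basal wells than in Krt1 and Krt10 wells.

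Of 15 attachment genes beside the keratins of the rule, 7 were higher in every plate (Itga6, Itga3, Itgb1, Col17a1, Dst, Lamb3 and Col7a1) and none lower, 46.7% of the list against 8.85% of all genes, with a median difference of 0.39 against 0.01 over all genes. Itga6, the alpha chain of the hemidesmosome integrin, had 1479, 387 and 195 CPM in Troy-EGFP 2, 3 and 4 and 662 and 575 CPM in traced 1 and 2, against 315, 88.0, 97.4, 233 and 261 CPM. The groups overlapped over plates while each plate showed the higher level in basal wells. ITGA6 was also a sort marker. Col17a1, a hemidesmosome collagen, had 1894 to 3609 CPM against 1230 to 1693 CPM (0.68 ± 0.27) and did not overlap. Krt15, Itgb4, the partner of Itga6, and Trp63, the master transcription factor of stratified epithelia, differed by 0.39 ± 0.36, 0.31 ± 0.35 and 0.03 ± 0.29.

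Of 17 genes used as markers of undifferentiated IFE cells, 9 were higher in every plate and Cd44 was lower, 52.9% and 5.88% of the list against 8.85% and 7.28% of all genes, with a median of 0.69. Besides Il1r2, Antxr1, Ly6a, Il33 and Ccnd1, these were Mt2 (1.18 ± 0.49), Ccnd2, another D cyclin (1.19 ± 0.73), the Wnt ligand gene Wnt10a (0.68 ± 0.39) and the glutamate transporter gene Slc1a3 (0.64 ± 0.50). Axin2, a Wnt target, differed by -0.01 ± 0.28, and Cd44, a hyaluronan receptor, by -0.50 ± 0.14. This list shares 3 members with the markers of the label.

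Of 12 early differentiation genes, 8 were lower in every plate and none higher, 66.7% of the list against 7.28% of all genes lower, with a median of -1.23 (Krtdap, Sbsn, Dsg1a, Calml3, Grhl1, Lypd3, Dmkn and Lgals3). Of these, Calml3 was higher in basal than in Krt1 and Krt10 wells, and lower than in lower follicle wells (-3.57 ± 0.53). Tgm3, a transglutaminase, and Klf4, a transcription factor of barrier formation, differed by 1.02 ± 1.10 and -0.31 ± 0.26. Only Casp14 of the late differentiation genes reached the minimum for comparison, at -0.06 ± 0.95. Of 9 lower follicle genes 7 were lower in every plate (77.8%), among them Sox9 (-1.43 ± 0.78) and Lhx2 (-1.99 ± 0.86), and of 3 upper follicle genes Krt17 was (33.3%).

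Several genes of DNA replication were higher in basal wells. Of 19 proliferation genes 9 were higher in every plate and none lower, 47.4% of the list against 8.85% of all genes, with a median of 0.70. All 9 act in S phase, its licensing or chromatin: Pcna, Mcm2, Mcm3, Mcm5, Mcm6, Mcm7, Rrm1, Hmgb2 and Gmnn. Mcm2, a helicase subunit, had 63.0 to 118 CPM against 8.74 to 43.2 CPM (1.43 ± 0.64) and Mcm6 41.4 to 297 CPM against 8.38 to 115 CPM (1.32 ± 0.60). Mki67, which marks cycling cells, differed by -0.14 ± 0.51, and Top2a by 0.43 ± 0.82. Levels were uneven between wells: at 1000 transcripts per well, 5 or more proliferation transcripts were found in 4.55% to 28.3% of the basal wells of a plate.

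Of 24 growth factor and Notch genes 7 were higher in every plate and 2 lower, 29.2% and 8.33% of the list against 8.85% and 7.28% of all genes, with a median of 0.38. The receptor genes Fgfr2 (379 to 535 CPM against 125.7 to 223 CPM, 1.27 ± 0.39), Fgfr3 (0.73 ± 0.51) and Tgfbr2 (0.90 ± 0.35) were higher, as were the ligands Bmp4 and Wnt3 (0.65 ± 0.43), the Wnt receptor Fzd10 (0.62 ± 0.28) and Igfbp3. Notch2 (-0.82 ± 0.21) and Erbb2 (-0.55 ± 0.41) were lower. Of 18 immediate early and stress genes, which tissue dissociation can induce, Fos (0.55 ± 0.33) and Junb (0.55 ± 0.35) were higher and Hspa1b (-0.57 ± 0.40) lower in every plate, 11.1% and 5.56% of the list, near the 8.85% and 7.28% over all genes. The summed level of the 21 genes of that list in the files ran from 2964 to 4862 CPM in basal and from 3087 to 4505 CPM in other wells.

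The share of wells with a transcript was compared after thinning each well to 1000 transcripts, with wells of T cell signs as the background. Il1r2 was found in 38.3% of 227 basal wells (15.6% to 52.2% by plate), in 5.84% of 634 other epidermal wells and in 0 of 59 T cell wells, which allows up to 5.08%. Without thinning the basal and other shares were 62.6% and 11.02%, at median depths of 3174 and 3255 transcripts. The T cell wells had a median of 1717. Smoc2 (35.2% against 7.41%), Itga6 (32.6% against 16.9%) and Serpinb2 (30.4% against 6.62%) were also found in 0 T cell wells.

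Ly6a was found in 23.8% of basal wells, from 4.55% to 35.5% by plate, in 7.57% of other epidermal and in 5.08% of T cell wells, and without thinning in 47.1%, 16.9% and 6.78%. Antxr1 was found in 16.3%, 3.63% and 1.69%. Ccnd2 was found in 50.7% of basal wells but in 69.5% of T cell wells. Mki67 was found in 3.08% of basal, 3.31% of other epidermal and 1.69% of T cell wells, and Mcm6 in 12.3%, 5.05% and 1.69%.

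**Figure D3:**
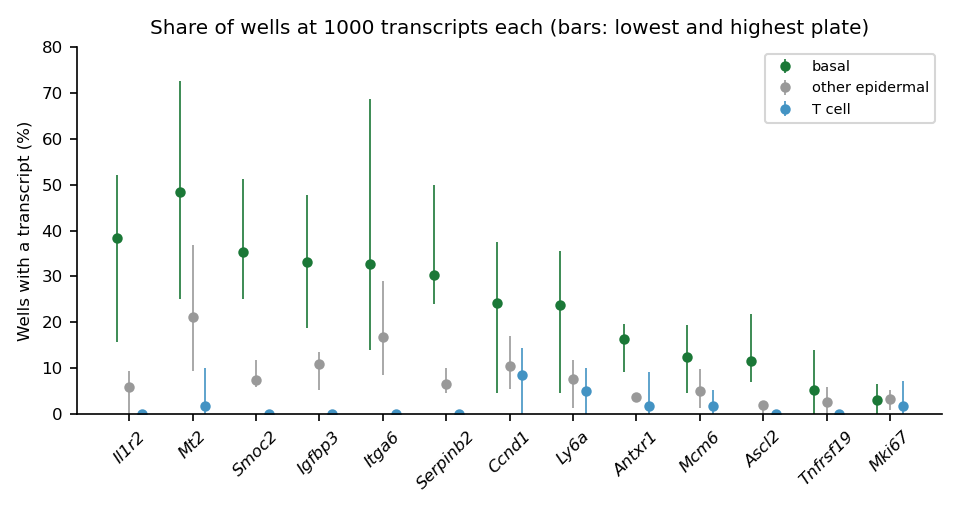
Share of wells with at least 1 transcript of each gene (y axis, percent) after thinning every well to 1000 transcripts, for basal, other epidermal and T cell wells. Points pool the plates, and bars run from the lowest to the highest plate. Il1r2 is at 38.3% in basal and 5.84% in other epidermal wells, while Mki67 is near 3% in both.

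The basal wells were not uniform. Among 220 genes with a mean of at least 0.5 transcripts per thinned well, the variance over the mean, which is 1 for pure counting error, had a median of 1.40. It was highest for Rn45s (32.6), the ribosomal RNA precursor, Mir5109 (21.6, in 2 plates only) and Kcnq1ot1 (14.1). Krt17 (11.8) and Krt6a (8.24), keratins induced by stress and present in the follicle, followed, with transcripts in 49 and 25 of the 232 basal wells. Over the plates Krt17 ran from 0.977 to 23.8 and Krt6a from 0.953 to 16.9, and in Troy-EGFP 3 neither exceeded counting error. Next came Gm17821 (6.19), A630089N07Rik (4.70), Krt14 (4.37), Vmn2r55 (3.95) and Mir6240 (3.66). Krt6a rests on 4 plates and Mir6240 on 3. In traced 1 and 2 the ratio was 4.91 and 1.39 for Kcnq1ot1, 1.49 and 1.74 for Gm17821, 1.35 and 0.844 for A630089N07Rik and 2.07 and 0.923 for Vmn2r55, below each Troy-EGFP plate. These ratios were not adjusted for level, and mean basal levels were also lower in traced than in Troy-EGFP plates. They were 982 against 22188 CPM for Kcnq1ot1 and 395 against 7601 CPM for Gm17821. For A630089N07Rik they were 277 against 4242 CPM and for Vmn2r55 425 against 5269 CPM. Krt14 and Kcnq1ot1 are genes of the rule.

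Bulk libraries of 2 Troy-EGFP mice gave a test that the choice of wells did not use. The labels do not say whether these mice also gave single cells. ITGA6bright EGFP+ cells were compared with ITGA6bright EGFP- cells, both gated for the basal layer. Of 4605 genes tested, 138 (3.00%) were higher and 185 (4.02%) lower in EGFP+ cells (edgeR quasi-likelihood test on all 6 libraries, Benjamini-Hochberg adjusted p under 0.05). Of the 15 leading genes, those higher by at least 1 in every plate, 14 were tested, all 14 had a positive difference and 10 passed, with a median log2 difference of 1.65 against -0.04 over all genes. The 10 were Il1r2, Antxr1, Serpinb2, Serpinb7, Ascl2, Bmp4, Cbr2, Fth1, Htra1 and Man1c1. With DESeq2 7 passed, and Antxr1, Bmp4 (adjusted p = 0.133) and Htra1 (adjusted p = 0.263) did not. Of the 15 genes with the largest mean differences, a set that overlaps with the leading genes, 14 were tested and 11 passed with edgeR. Between 7 and 12 leading genes passed under the alternatives run. Of all 504 genes higher in basal wells of every plate, 382 were tested, of which 48 (12.6%) passed as higher and 1 as lower.

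Il1r2 had 231 and 236 CPM in EGFP+ cells of mouse 1 and 2, 22.5 and 31.0 CPM in EGFP- cells, and 98.8 and 207 CPM in viable cells. The EGFP+ and EGFP- cells were far apart in both mice, by 3.00 ± 0.488 (log2, SE, edgeR adjusted p = 0.000504). Serpinb7 had 258 and 266 CPM against 15.03 and 43.3 CPM (3.00 ± 0.437, edgeR adjusted p = 0.000167). Serpinb2 had 179 and 166 CPM against 37.6 and 31.0 CPM (2.24 ± 0.428, edgeR adjusted p = 0.00216), and Ascl2 214 and 201 CPM against 45.1 and 37.1 CPM (2.25 ± 0.399, edgeR adjusted p = 0.00118). All 4 stayed past the threshold when any 1 library was left out. Without an EGFP+ or EGFP- library that population rests on 1 library, which the fit takes to vary like the other populations, viable cells included, so these values are a weak check.

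With each library left out, the log2 difference ran from 1.33 to 1.63 for Cbr2, 1.84 to 2.65 for Man1c1 and 1.68 to 2.34 for Bmp4. Some other leading genes were less firm in bulk. Antxr1 had 143 and 75.4 CPM against 22.5 and 37.1 CPM (1.81 ± 0.529, edgeR adjusted p = 0.0436), and missed the threshold without EGFP+ of mouse 1 (1.20, edgeR adjusted p = 0.454) or EGFP- of mouse 1 (1.58, edgeR adjusted p = 0.0563), with DESeq2 (adjusted p = 0.307) and with only the EGFP+ and EGFP- libraries (edgeR adjusted p = 0.0728). Htra1, a secreted protease, kept its call without only 1 of the 6 libraries, and Fth1, ferritin heavy chain, without 4 of them. Ly6a had 223 and 176 CPM against 113 and 74.3 CPM and missed the threshold (1.03 ± 0.360, edgeR adjusted p = 0.0930). Smoc2 had 193 and 166 CPM against 97.7 and 130 CPM (0.57 ± 0.342, edgeR adjusted p = 0.395). Ccnd1 had 234 and 271 CPM against 67.6 and 167 CPM (0.97 ± 0.370, edgeR adjusted p = 0.126), and passed with the mouse as a block (1.04, edgeR adjusted p = 0.0376).

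The genes low in basal wells divided in bulk. Of 17, 15 were tested and 6 passed as lower in EGFP+ cells: Alox12e, Calml3, Foxc1, Gstm5, Lhx2 and S100a4. DESeq2 called 5 lower and 1 higher, without S100a4 (-3.34, adjusted p = 0.0616) and Cdkn1a (adjusted p = 0.0787). Foxc1, a forkhead factor, had 35.1 and 25.1 CPM against 481 and 594 CPM (-4.18 ± 0.362, edgeR adjusted p = 1.21e-06). But Calm4 (1.65 ± 0.366, edgeR adjusted p = 0.00766) and Cdkn1a, the cell cycle inhibitor p21 (1.11 ± 0.316, edgeR adjusted p = 0.0365), passed as higher in EGFP+ cells. Calm4 missed the threshold without EGFP+ of mouse 1 (edgeR adjusted p = 0.0846), and Cdkn1a kept its call without only 2 of the 6 libraries. Also higher were Krt1 (2.04 ± 0.323, edgeR adjusted p = 0.000366) and Krt10 (1.67 ± 0.314, edgeR adjusted p = 0.00193), which the basal rule keeps low in the wells.

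**Figure D4:**
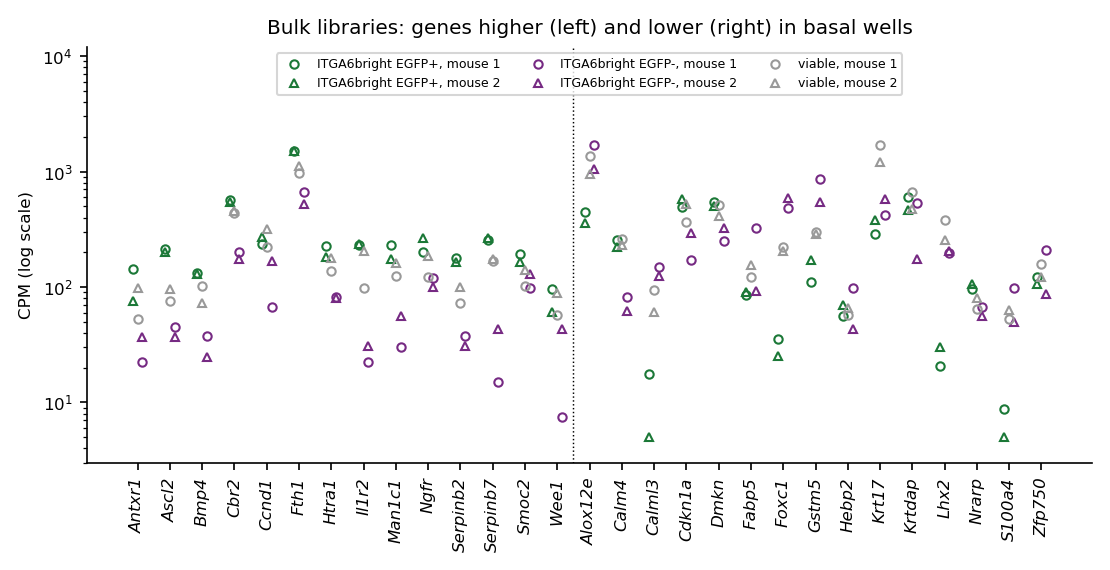
Levels in the bulk libraries (y axis, CPM on a log scale) of the genes higher (left of the dotted line) and lower (right) by at least 1 on the log2 scale in basal wells of every plate. Circles are mouse 1 and triangles mouse 2, with EGFP+ in green, EGFP- in purple and viable cells in grey. All 14 genes on the left have a higher mean in EGFP+ than in EGFP- cells.

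Some members of the gene lists passed in bulk, where 3.00% of all genes passed as higher and 4.02% as lower. Of 17 attachment genes 6 passed as higher in EGFP+ cells and none as lower, among them Col7a1, the anchoring fibril collagen (2.33 ± 0.423, edgeR adjusted p = 0.00145). DESeq2 called 5 attachment genes higher. Of 16 genes of undifferentiated IFE cells 4 passed as higher and 1 lower, and DESeq2 called 1 and 0. The 4 include Tnfrsf19, whose promoter drives the EGFP by which the cells were sorted. Of 18 growth factor genes 5 passed as higher, among them Wnt3 (2.92 ± 0.578, edgeR adjusted p = 0.00304), and DESeq2 called 2. Of 20 immediate early genes 7 passed as higher and 1 as lower (4 and 1 with DESeq2), with Fos at 811 and 879 CPM against 75.1 and 142 CPM. Of 20 proliferation genes, none passed as higher and 4 as lower (Top2a, Cdk1, Birc5 and Stmn1), with 9 at an unadjusted p under 0.05 against 20.2% of all genes tested, and DESeq2 gave 0 higher and 1 lower.

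Genes of other cells moved with the same comparison. Of 9 upper follicle genes 6 passed as lower in EGFP+ cells (4 with DESeq2), and of 9 lower follicle genes 3 (3 with DESeq2). All 5 Langerhans cell genes tested passed as lower, with H2-Ab1 at 38.1 and 15.1 CPM in EGFP+ and 594 and 440 CPM in EGFP- cells. Of early differentiation genes 7 of 16 passed as higher and 2 as lower (4 and 2 with DESeq2), and of late ones 2 of 4 as higher (0 with DESeq2). The melanocyte gene Mitf and Ptprc, common to T and Langerhans cells, passed as lower, and no endothelial gene could be tested. Thy1, the other T cell gene tested, went the other way without passing (0.84 ± 0.364, edgeR adjusted p = 0.192). The part of these cells in the differences above was not tested, and in bulk fewer cells of a type and less RNA per cell cannot be told apart.

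Between mice the basal wells could be tested directly, since the rule did not use which mouse a well came from. Transcripts were summed over the basal wells of each plate with at least 10 of them, which left out Troy-EGFP 1 and gave 2 traced against 3 Troy-EGFP plates. Of 3333 genes tested, 7 (0.210%) were higher and 13 (0.390%) lower in the traced mice (edgeR, adjusted p under 0.05). Of the 13, Kcnq1ot1 is a gene of the rule and its value in the chosen wells is given below as a description, which leaves 12. The groups did not overlap in any of the 20, which was also so in 34.2% of all genes tested. Without traced 1 or without traced 2, edgeR called no gene (265 and 260 at an unadjusted p under 0.05). The traced mice then rest on 1 plate, which the fit takes to vary like the 3 Troy-EGFP plates. Without Troy-EGFP 2 it called 413 higher and 251 lower, without Troy-EGFP 3 it called 0 and 6 (304 at an unadjusted p under 0.05), and without Troy-EGFP 4 it called 1 and 7. DESeq2 on all 5 plates called 22 and 31.

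Higher in traced mice were Krt16, Fxyd3, Tecr, Atp5e, Cst3, Cd63 and Bsg. Krt16, a keratin of activated epidermis, had 11.4, 6.44 and 5.92 CPM in Troy-EGFP 2, 3 and 4, which was 1 transcript in each, and 175.5 and 359 CPM in traced 1 and 2. The difference was 4.94 ± 0.604 (log2, SE, edgeR adjusted p = 0.00911). Fxyd3, a regulator of the sodium pump, had 68.2, 25.8 and 11.8 CPM against 747 and 619 CPM (4.36 ± 0.541, edgeR adjusted p = 0.00911). Tecr, an enzyme of fatty acid elongation, differed by 3.17, Atp5e, an ATP synthase subunit, by 2.82, the protease inhibitor gene Cst3 by 2.81, the tetraspanin gene Cd63 by 2.79 and the glycoprotein gene Bsg by 2.48.

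Lower in traced mice were mostly non-coding or unnamed transcripts. Kcnq1ot1, a long antisense RNA that the rule limits to 10% of a well, had 11337, 22583 and 32644 CPM in Troy-EGFP 2, 3 and 4 and 981 and 983 CPM in traced 1 and 2. The rule removed 6, 27 and 23 wells for it from Troy-EGFP 2, 3 and 4 and 0 from either traced plate, so no test is read from these levels. The other large falls were 5530601H04Rik, Gm10785, A130077B15Rik, F830016B08Rik, Grk4, 4930470H14Rik, Gm17821, A630089N07Rik and Vmn2r55, from -5.38 to -3.74. The ribosomal protein genes Rps23 (-2.12), Rpl14 (-3.27) and Rps15a (-2.92) completed the list.

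Most of these genes shifted alike in the other epidermal wells of these plates, where no test was run. For 19 of the 20 the traced minus Troy-EGFP difference of log2(CPM + 20) had the same sign there and a size of at least 1. Both classes came from the same plates, and the share over all genes tested was not counted, so no conclusion is drawn from this number. Krt16 was the exception, at 3.29 in basal and -0.32 in other epidermal wells, and the difference between the classes was not tested. Genotype, tamoxifen and sort go with the group, as does the experiment, since the paper made the traced dataset after the Troy-EGFP one. These cannot be told apart. Sex differed as well, since both traced mice were male and the basal wells of Troy-EGFP 3 and 4 held Xist and no Y-linked transcripts. On the plates named as male, Troy-EGFP 1 (5 basal wells) and 2 against both traced plates, edgeR called 99 genes higher and 53 lower.

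**Figure D5:**
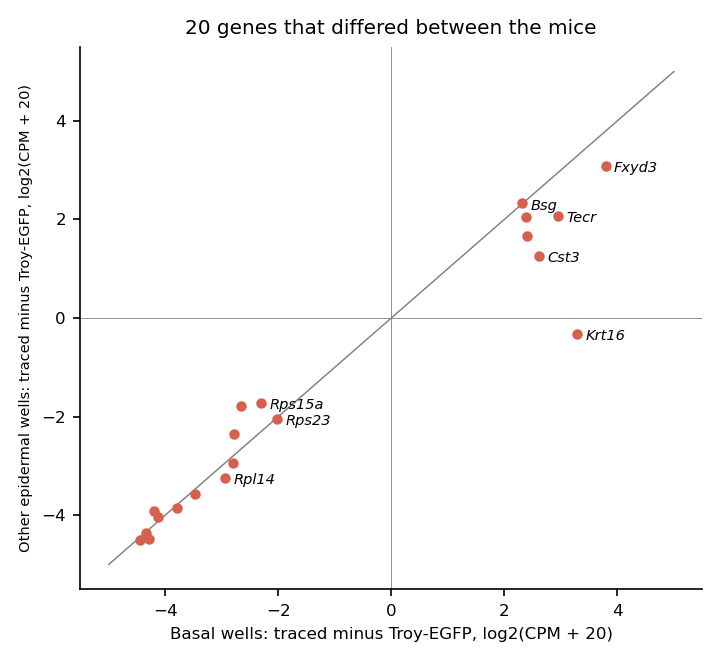
Traced minus Troy-EGFP difference of mean log2(CPM + 20) in basal wells (x axis) against the other epidermal wells of the same plates (y axis) for the 20 genes that passed, with the line of equal differences. Of the 20, 19 have the same sign in both, and Krt16 is at 3.29 and -0.32. The 20 include Kcnq1ot1, which the rule limits.

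None of the 15 leading genes passed between the groups of mice with edgeR or with DESeq2. With edgeR 2 of them were at an unadjusted p under 0.05, against 511 (15.3%) of all genes tested. Il1r2 differed by 0.87 ± 0.449 (edgeR adjusted p = 0.406), Antxr1 by -0.18 ± 0.350 (edgeR adjusted p = 0.867), Ly6a by 1.47 ± 0.531 (edgeR adjusted p = 0.233) and Smoc2 by -0.92 ± 0.404 (edgeR adjusted p = 0.322). Ly6a and Il1r2 passed under some alternatives: Ly6a without Troy-EGFP 2, by 2.12, and Il1r2 on the plates named as male, by 2.26. Krt15 had 7084, 2087 and 1680 CPM against 16810 and 18382 CPM, with no overlap, and missed the threshold (2.27 ± 0.506, edgeR adjusted p = 0.0924).

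The gene lists were counted without the genes of the rule (Krt5, Krt14, Krt1, Krt10, Defb6, H2-Ab1 and H2-Aa), beside 15.2% of all genes outside the rule at an unadjusted p under 0.05. None of the label's markers (3 tested, 1 at an unadjusted p under 0.05), attachment (15 tested, 4 at an unadjusted p under 0.05), undifferentiated IFE (15, 3), early differentiation (11, 6), lower follicle (6, 1), upper follicle (2, 1), immediate early (16, 4), proliferation (15, 1), growth factor (18, 4) or sex-linked genes (3, 2) passed with edgeR. Of Langerhans cell genes H2-Eb1 alone was left, at an unadjusted p under 0.05 and not past the threshold. DESeq2 called 1 attachment, 1 early differentiation and 1 growth factor gene higher in traced mice. These counts do not show that the groups are alike, since few plates could be compared.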

How the data were processed

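Bulk libraries were made by CEL-Seq2 and single cells by SORT-seq, which both read transcript 3′ ends. For bulk cells the authors deposited whole counts per gene without normalization, and for single cells estimated counts of transcripts per gene and well, made from molecular barcodes of 6 bases. Per the labels, BWA 0.6.2-r126 and mm10 were used. Rows of spike-ins and mitochondrial genes were dropped and symbols merged. Summed basal wells held 87965 to 222223 transcripts in the plates tested and bulk libraries 133072 to 396380 counts, which limits both to abundant genes. Wells are single sorted cells and no doublet caller was run. Single-cell sums were rounded. The main test was the quasi-likelihood F test of edgeR 4.0.16 (R 4.3.3) after filterByExpr and TMM scaling, with p-values adjusted by Benjamini-Hochberg and called at 0.05, and DESeq2 1.42.0 was an alternative. Standard errors are the log2 difference over the square root of F. CPM used a pseudocount of 20 and genes needed 20 basal transcripts. Scripts were tested on simulated data (Python 3.11.15). The 3 bulk populations of a number came from 1 mouse, so the numbers pair them, with correlations of deviations of 0.0380, 0.0635 and 0.0765. Plates were taken as 1 mouse each, which the sample titles do not state beyond a replicate number. The p-values measure the spread between these samples.

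Named genes were those of the rule and label, the 15 largest and 10 smallest mean differences of constant sign, the top 5 against each nearest class, up to 10 called each way between mice, the 10 most variable, Tnfrsf19 and members of the gene lists as examples. Calm4, Lhx2, S100a4, Foxc1, Fth1 and Htra1 are named as genes past the log2 limit of 1. The wells, lists and rules were chosen with earlier results of these data known. Alternatives covered the limits of the rule, depth, pseudocount, comparison class, normalization, filters, tool, mouse block and each plate or library left out.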

Additional observations from a re-analysis of the deposited data

Results flagged for a closer look

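S100a6 differed in direction between the groups of mice. Basal minus other epidermal wells averaged -0.67 in the 3 Troy-EGFP plates, from -1.07 to -0.312, and 0.232 in the 2 traced plates, from 0.0349 to 0.429, all in log2(CPM + 20). The difference between the groups, 0.907, was not tested. It was 1 of 33 named genes examined in this way.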

How the results depend on the processing

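The depth of the wells limits shares and low genes, and the causes of the changes below were not tested. The traced minus Troy-EGFP difference in basal share, 2.05 points, turned to -0.262 with at least 2000 transcripts per well and to -0.267 with exclusion limits doubled, was 3.83 with them halved and 6.74 with wells thinned to 1000 before the rule, and ran from 0.202 to 3.90 with each plate left out. The 15 leading genes became 33 with a pseudocount of 5, 6 with 50, 9 with plates of at least 5 wells, and 67, 86 and 299 against the committed (Krt1 and Krt10), lower follicle and upper follicle wells. They ran from 17 to 22 with each plate left out. Of the 15 (and 17 low) genes, 6 (and 10) remained with wells thinned to 1000, 9 (and 10) with the mean of well CPM, 7 (and 8) against committed and 9 (and 7) against lower follicle wells. The 17 low genes became 27, 11, 30, 63 and 119 with a pseudocount of 5, of 50 and against these classes, and 21 to 26 with a plate left out (26 without traced 2). Of the named genes in these settings, 369 values of 462 moved by less than the spread, 84 by more and 9 reversed: against committed wells Ctgf (1.22), S100a4 (1.68), Krt17 (2.87), Igfbp4 (0.805) and Calml3 (2.41), against lower follicle wells Ly6g6c (0.288) and Fabp5 (0.5), and against upper follicle wells Ctgf (0.650) and S100a4 (0.794). Between mice, the 7 higher and 13 lower genes became 22 and 31 with DESeq2, 170 and 116 without a filter, 99 and 53 on the plates named as male, 12 higher without a minimum of wells and 4 higher with limits halved. With each plate left out they ran from 0 to 413 and from 0 to 251. Plates share only a number with those of the other group (correlations of deviations -0.0112 and -0.0390), and with it as a replicate block and no minimum of wells the counts were 37 and 28, against 12 and 12 with no minimum of wells alone. In bulk, the 138 higher and 185 lower genes became 70 and 70 with DESeq2, 214 higher without a filter, 74 and 114 with EGFP+ and EGFP- only, 204 and 255 with the mouse as a block, and 62 to 346 and 81 to 381 with each library left out (lowest without EGFP+ of mouse 1, highest without EGFP- of mouse 2). The mouse block brought Ccnd1 (1.04), Fabp5 (-1.30) and Ly6g6c (-1.17) past the threshold and changed no other call among the genes refitted under each alternative. Of their bulk values 392 of 439 kept their call, 35 lost and 12 gained it, and between mice 197 of 269 kept it, 66 lost and 6 gained it. At 2000 transcripts per well the variance over mean rose to 39.3 for Mir5109, 32.8 for Kcnq1ot1, 20.3 for Krt17, 19.7 for Krt6a, 11.1 for Gm17821, 7.30 for Krt14, 8.77 for Vmn2r55 and 5.75 for Mir6240.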
